A study of Mus musculus with 4 samples.

Results

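The 10 genes described here encode LAG3, TIGIT and further receptors and ligands that restrain or tune T cells: Lag3, Tigit, Havcr2 (TIM-3), Havcr1 (TIM-1), Cd226, Cd96, Cd160, Cd200, Cd200r1 and Lair1. They were chosen by name, with earlier results of these data known. All 10 were found among the 50600 genes of the deposited tables by the stem of their gene ID in GENCODE M21. The data are RNA sequencing of 4 replicate libraries of T helper 17 (Th17) cells, the CD4 T cells that secrete IL-17, from C57BL/6NJ mice. All 4 libraries are primary cells with the same strain and donor label, no added genotype or treatment is named, sex was not collected and age is unknown, and the labels link a protocol for differentiating CD4 T cells. The libraries form a single group, so the comparisons are between genes and between libraries. The labels number them as biological replicates with a biosample each, but do not say that they came from separate animals or cultures, so p-values measure only the spread between these libraries.

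T cells carry pairs of activating and inhibitory receptors that compete for the same ligands on neighbouring cells. LAG3 is a relative of CD4 that binds MHC class II, and TIGIT holds back T cells through the nectin family ligands that CD226 uses to activate them, with CD96 as a further receptor of that set. TIM-3 is best known from Th1 and exhausted T cells, CD160 binds the TNF receptor family member HVEM, CD200 is a ligand that restrains cells carrying its receptor CD200R1, and LAIR1 binds collagen.

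The libraries held 28555677, 36998648, 58104663 and 42896684 fragment counts in replicates 1 to 4, so a count of 0 allows up to 3 counts, or 0.105, 0.0811, 0.0516 and 0.0699 CPM (counts scaled to the library total). The label of the cells fitted their markers: all 7 Th17 and T cell markers tested were present, with Il17f from 11398 to 11662, Il17a from 4195 to 4627 Ccr6 from 155 to 172, Il23r from 30.0 to 33.6, Rora from 41.8 to 45.9, Cd3e from 106 to 108 and Cd4 from 326 to 363 TPM (counts scaled by exon length and library total). Cd8a had at most 0.110 TPM. The markers of NK cells summed to between 1.07 and 1.58 TPM, of macrophages and monocytes to between 1.00 and 1.31, of dendritic cells to between 0.570 and 1.18 and of B cells to at most 0.215, and the 4 mast cell and basophil markers had 0 counts. The defining genes Ncr1, Klrb1c and Gzma of NK cells, Lyz2 of macrophages, Siglech of plasmacytoid dendritic cells and Ms4a1 of B cells were at 0 counts in every library. Other members of these lists had counts: the NK cell marker Klre1 was detected at 1.19 TPM, and Csf1r and Cd14 of macrophages and Itgax of dendritic cells averaged 0.580, 0.429 and 0.689 TPM. Of these, Csf1r and Itgax differed between libraries by the rule for variable genes used here, which called 1.74% of 12434 genes. By the stricter negative binomial deviance, described below, neither was called (adjusted p = 0.560 and 0.516). Replicates 1 and 2 stood apart from replicates 3 and 4 in sex-linked genes: Xist was at 132, 131, 0.329 and 0.496 TPM, and Ddx3y at 0.428, 0.347, 58.9 and 57.3 TPM. By these genes the libraries do not all come from the same animals, although they share a donor label. Within replicates 1 and 2, and within 3 and 4, the spread may be technical. What this difference contributes to the other values was not tested. In bulk RNA, fewer cells that express a gene and less RNA per cell cannot be told apart.

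At a threshold of 1 TPM or more in every library, taken here as detection, 7 of the 10 genes were detected, beside 47.0% of all 21764 protein-coding genes. Cd200 was highest, then Cd96, Lag3, Tigit, Cd226, Havcr1 and Cd200r1. Lair1, Cd160 and Havcr2 were below the threshold. The levels of the 10 genes summed to 349, 337, 325 and 366 TPM in replicates 1 to 4, of which Cd200 made up 59.5 ± 1.99%, Cd96 19.4 ± 2.22% and Lag3 11.7 ± 0.352% (SD, n = 4). The median level over the 10 was 8.08 TPM, beside 0.575 TPM over all protein-coding genes.

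**Figure D1:**
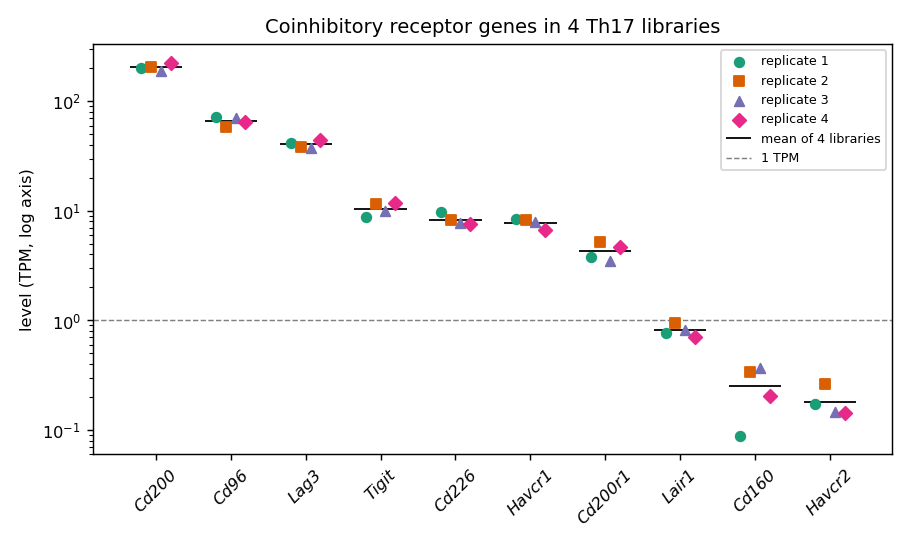
Level of each of the 10 genes in TPM on a log axis, with a point for each of the 4 Th17 libraries and a bar at their mean; the dashed line is 1 TPM. Cd200 lies near 205 TPM, Cd96 and Lag3 at 66.6 and 40.4, a group of Tigit, Cd226, Havcr1 and Cd200r1 between 4.27 and 10.5, and Lair1, Cd160 and Havcr2 under the line.

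The 250 bases before the transcription start are shown for the 2 highest genes, for Tigit and for the lowest gene, as the stretch of genome where each transcript begins, from RefSeq on build GRCm38.p6. Capitals mark matches to TGANTCA, the AP-1 and BATF motif, and to TTCNNNGAA, the STAT motif, searched on both strands.
Cd200, chr16:45409054-45409303, minus strand: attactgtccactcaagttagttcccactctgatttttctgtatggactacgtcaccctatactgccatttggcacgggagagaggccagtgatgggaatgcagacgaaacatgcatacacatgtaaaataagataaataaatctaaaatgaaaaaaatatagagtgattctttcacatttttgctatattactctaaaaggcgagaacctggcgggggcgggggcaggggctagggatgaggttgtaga
Cd96, chr16:46120249-46120498, minus strand: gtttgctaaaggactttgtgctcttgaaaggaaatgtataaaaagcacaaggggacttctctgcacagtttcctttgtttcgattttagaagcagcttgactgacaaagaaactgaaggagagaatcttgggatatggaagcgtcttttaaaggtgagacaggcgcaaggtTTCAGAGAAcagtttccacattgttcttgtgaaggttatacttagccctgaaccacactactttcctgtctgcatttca
Tigit, chr16:43664185-43664434, minus strand: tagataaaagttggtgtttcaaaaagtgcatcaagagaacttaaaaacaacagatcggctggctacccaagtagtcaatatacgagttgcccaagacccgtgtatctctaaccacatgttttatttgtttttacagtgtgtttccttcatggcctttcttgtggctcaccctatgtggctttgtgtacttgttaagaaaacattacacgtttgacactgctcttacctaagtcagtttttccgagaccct
Havcr2, chr11:46454681-46454930, plus strand: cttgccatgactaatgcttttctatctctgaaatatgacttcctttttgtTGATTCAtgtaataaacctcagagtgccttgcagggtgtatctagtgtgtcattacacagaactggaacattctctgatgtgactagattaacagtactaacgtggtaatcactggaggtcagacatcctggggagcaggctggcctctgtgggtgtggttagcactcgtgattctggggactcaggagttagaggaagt

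These windows differ little in base composition: G and C make up 42.4% of the Cd200 window, 41.2% of the Cd96 window, 40.0% of the Tigit window and 44.8% of the Havcr2 window, below the median of 52.4% over 32851 promoter windows. The Cd200 and Tigit windows hold neither motif. The Cd96 window holds TTCAGAGAA, which begins 79 bases before the start, and the Havcr2 window holds TGATTCA, which begins 200 bases before it. Of all 32851 windows, 6.75% hold TGANTCA and 7.02% hold TTCNNNGAA. The RUNX motif ACCACA, held by 14.0% of windows, was in the Cd96, Tigit and Havcr2 windows and not in that of Cd200. The E-box CANNTG, held by 66.2%, was in the Cd200 and Tigit windows and in neither of the others. Over the 10 windows listed for 7 of the 10 genes, TGANTCA was in 1 and TTCNNNGAA in 2. The remaining genes, Lag3, Cd226 and Cd200r1, have no entry in the table used. A match is a string of letters and not evidence of binding.

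The ligand gene Cd200 stood far above the gene of its receptor. Cd200, which encodes the ligand, was at 203, 206, 187 and 225 TPM in replicates 1 to 4. It was highest in replicate 4 and lowest in replicate 3, at 205 ± 15.5 TPM (SD, n = 4), above 96.0% of protein-coding genes. Cd200r1, the gene of its inhibitory receptor, was at 3.80, 5.15, 3.46 and 4.67 TPM, with the higher values in replicates 2 and 4. The log2 ratio of Cd200 to Cd200r1 was 5.57 ± 0.20, a 47.4-fold difference with the same direction in 4 of 4 libraries. Macrophage and dendritic cells also carry Cd200r1. Their markers Csf1r and Itgax were at 0.839, 0.702, 0.492 and 0.285 TPM and at 0.878, 0.977, 0.464 and 0.434 TPM, higher in replicates 1 and 2. Adgre1 and Xcr1, of the same lists, were at 0.0722, 0.111, 0.0176 and 0.167 TPM and at 0.0526, 0.101, 0.0128 and 0.156 TPM. These were higher in replicates 2 and 4, on 14 and 17 counts in all, so the lists held no common order of libraries. What such cells add to Cd200r1 was not tested. The relatives Cd200r4, Cd200r2 and Cd200r3 were at 0.454 ± 0.158, 0 and 0.0167 ± 0.00322 TPM.

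Lag3 was at 41.5, 38.5, 37.2 and 44.3 TPM in replicates 1 to 4, highest in replicate 4 and lowest in replicate 3. Its mean of 40.4 ± 3.19 TPM (SD, n = 4) lay above 79.9% of protein-coding genes. Lag3 was below Cd4, its relative and next gene on chromosome 6, in every library, and its log2 ratio to Cd4 was -3.10 ± 0.07. That SD was the smallest of the 18 pair ratios. Among ligand genes, those of MHC class II were near or under the threshold: H2-Ab1 was at 1.45 ± 0.0611 TPM, H2-Eb1 at 1.03 ± 0.633 and H2-Aa at 0.0470 ± 0.0543. H2-Eb1 had 15, 2, 20 and 23 counts, low in replicate 2, and H2-Aa had 0, 2, 3 and 0. Lgals3, which encodes the ligand galectin-3, was at 9.31 ± 1.24 TPM, and Fgl1, a ligand made by liver, had 0 counts in all libraries. The sheddases that cut LAG3 from the cell surface, Adam10 and Adam17, were at 168 ± 7.91 and 44.6 ± 0.724 TPM.

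The receptors that share nectin family ligands were led by Cd96. Cd96 was at 72.4, 58.4, 70.9 and 64.6 TPM, highest in replicate 1 and lowest in replicate 2, with a mean of 66.6 ± 6.41 TPM (SD, n = 4). Tigit, the inhibitory receptor, was at 8.76, 11.4, 9.92 and 11.7 TPM, and replicate 1 was the lowest. Cd226, the activating receptor, was at 9.79, 8.31, 7.69 and 7.54 TPM, with replicate 1 the highest. Of the summed level of these 3 genes, Cd96 took 77.9 ± 2.48%, Tigit 12.4 ± 2.35% and Cd226 9.77 ± 1.08%. The log2 ratio to Cd96 was -2.66 ± 0.32 for Tigit and -2.99 ± 0.18 for Cd226, negative in 4 of 4 libraries for both.

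Tigit and Cd226 could not be put in order. Tigit was below Cd226 in replicate 1, with a ratio of 0.895 (exact 95% counting interval 0.673 to 1.18). It was above Cd226 in the other libraries, with ratios of 1.38 (1.09 to 1.73) in replicate 2, 1.29 (1.06 to 1.56) in replicate 3 and 1.55 (1.25 to 1.92) in replicate 4. The mean log2 ratio was 0.32 ± 0.34 (exact two-sided sign-flip permutation test, p = 0.25, adjusted p = 0.281), and per CPM, without length scaling, it was -0.94, because the exons of Tigit are shorter (963 bases) than those of Cd226 (2357 bases). With 200 bases taken off each length it was 0.52. With the longest coding transcript, where Cd226 has 4494 bases, it was 1.30. By the same test, unadjusted p was 0.125 in each of these 3 settings, so the order rests on the length used. The intervals of the ratios cover counting error only. Foxp3, the factor of regulatory T cells, in which Tigit is known to be high, was at 6.29, 6.02, 4.97 and 3.70 TPM. It was lowest in replicate 4, where Tigit was highest. Ikzf2, a further marker of these cells, was at 4.29, 4.56, 4.75 and 4.54 TPM, lowest in replicate 1, where Tigit was lowest too. What regulatory T cells add to Tigit was not tested.

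**Figure D2:**
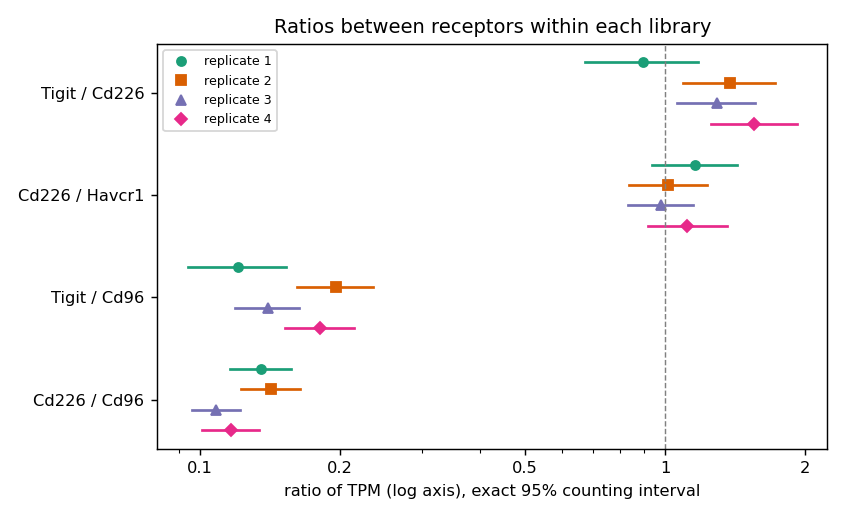
Ratio of TPM between 2 receptor genes within each Th17 library, on a log axis, with the exact 95% interval from the counts; the dashed line is a ratio of 1. Tigit to Cd226 lies at 0.895 in replicate 1 and between 1.29 and 1.55 in the others, Cd226 to Havcr1 lies near 1 in all, and both ratios to Cd96 lie between 0.109 and 0.196.

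Of the ligand genes of this set, Pvr, the main ligand of all 3 receptors, was at 19.4, 18.2, 17.6 and 16.7 TPM. Nectin2, a further ligand of TIGIT and CD226, was at 0.575 ± 0.148 TPM, so that the log2 ratio of Pvr to Nectin2 was 4.77 ± 0.38 in 4 of 4 libraries. Nectin3, a ligand of TIGIT, was at 4.61 ± 0.302 TPM and Nectin1, which binds CD96 in mice, at 0.298 ± 0.0519. Of relatives, Crtam was at 2.63 ± 0.163 TPM, and Pvrig, an inhibitory receptor for nectin-2, had 0 counts in every library.

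The TIM genes differed widely although they lie in 1 cluster. Havcr2 had 4, 8, 7 and 5 counts in replicates 1 to 4, or 0.172, 0.265, 0.147 and 0.142 TPM. The level of 3 counts was 0.129, 0.0995, 0.0631 and 0.0852 TPM, so Havcr2 lay above it in every library, but by few counts. Havcr1 was at 8.47, 8.20, 7.87 and 6.75 TPM, lowest in replicate 4. The log2 ratio of Havcr2 to Havcr1 was -4.83 ± 0.23, negative in 4 of 4 libraries. Its size depends on the pseudocount of 0.1 TPM, which is near the level of Havcr2 itself: it was -2.90 with 1 TPM and -5.39 with 0.01 TPM. Without a pseudocount the TPM ratios were 0.0203, 0.0324, 0.0187 and 0.0210. Timd2, a rodent relative next to Havcr1, was above both at 45.9 ± 3.73 TPM. Timd4, which encodes the TIM-1 ligand of antigen-presenting cells, had 2 counts in replicate 4 and 0 in the others. Of the genes of TIM-3 ligands, Lgals9 (galectin-9) was at 87.1 ± 4.43 TPM and Hmgb1 at 148 ± 7.38, while Ceacam1, like Havcr2, was under the threshold at 0.255 ± 0.0702. Havcr1 and Timd2 share 0.694% and 0.461% of their 100-base windows, the stretches in which fragments mapping to both would go uncounted.

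Cd160 had 2, 10, 17 and 7 counts in replicates 1 to 4, or 0.0887, 0.342, 0.368 and 0.205 TPM, and the exact 95% counting intervals of all libraries overlapped. CD160 is carried by NK cells, some CD8 T cells and gamma-delta T cells, whose marker lists were mixed. Trdc and Klre1 were at 1.28 ± 0.290 and 1.19 ± 0.179 TPM, Tcrg-C1 at 0.495 ± 0.536, Eomes at 0.0651 ± 0.0487 and Cd8a at 0.0612 ± 0.0477, and Ncr1, Klrb1c and Gzma had 0 counts. What such cells add to Cd160 was not tested. Btla, which binds the same ligand HVEM, was at 134 ± 6.73 TPM, and the log2 ratio of Cd160 to Btla was -8.67 ± 0.64, with -6.76 and -9.18 at pseudocounts of 1 and 0.01 TPM. Tnfrsf14, the gene of HVEM, was at 23.5 ± 0.717 TPM.

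Lair1 was at 0.768, 0.954, 0.819 and 0.713 TPM, highest in replicate 2. It had 304 counts in all over 7475 exon bases, and it passed 1 CPM in every library at 1.83 ± 0.227 CPM, so its call rests on the length scaling. The log2 ratio of Lair1 to Cd200r1 was -2.25 ± 0.25, negative in 4 of 4 libraries, and -0.48 in CPM without length scaling. Collagen genes, the ligands of LAIR1, were at 0.155 ± 0.0574 TPM for Col1a1 and lower for Col17a1 (0.0724 ± 0.0450), Col1a2 (0.00573 ± 0.00405), Col4a1 (0.00450 ± 0.00532) and Col3a1 (0 counts). C1qa, a complement gene of a further ligand, had 0 counts.

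**Figure D3:**
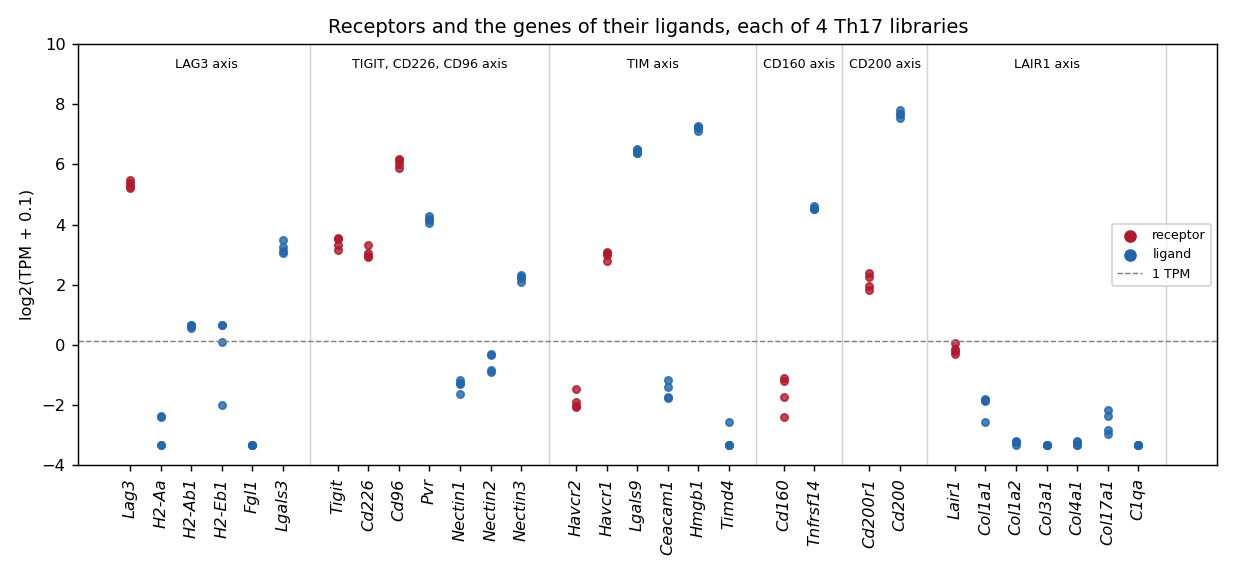
Level as log2(TPM + 0.1) in each of the 4 Th17 libraries for receptor genes (red) and the genes of their ligands (blue), grouped by receptor; the dashed line is 1 TPM. Cd200, Hmgb1, Lgals9, Tnfrsf14 and Pvr are the ligand genes with the highest levels, and Fgl1, Col3a1 and C1qa, with 0 counts, lie at the bottom.

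Neighbours in the order of levels were compared within each library. Cd200 exceeded Cd96 by a log2 ratio of 1.62 ± 0.21, Cd96 exceeded Lag3 by 0.72 ± 0.18, Lag3 exceeded Tigit by 1.95 ± 0.21, Havcr1 exceeded Cd200r1 by 0.87 ± 0.33 and Lair1 exceeded Cd160 by 1.46 ± 0.53, each in 4 of 4 libraries. Tigit and Cd226, Cd226 and Havcr1 (0.09 ± 0.11, positive in 3 of 4) and Cd160 and Havcr2 (0.25 ± 0.60, positive in 3 of 4) did not separate beyond their spread. With 4 libraries the exact two-sided sign-flip permutation test cannot go below p = 0.125, and over the 18 pairs the smallest adjusted p was 0.15, so no pair could pass 0.05. With the length of the longest coding transcript in GENCODE M21, the log2 ratio of Cd226 to Havcr1 was -1.01, as Cd226 then has 4494 bases in place of 2357.

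Of inhibitory receptors outside the 10 genes, Ctla4, Cd5, Cd6 and Pdcd1 lay above Cd200, the highest of the 10. Ctla4 was at 1907 ± 82.9 TPM and Pdcd1 at 556 ± 21.9 (SD, n = 4), and the 10 genes together came to between 17.5 and 19.0% of Ctla4. Cd200, the gene of a ligand, made up 59.5% of that sum on average, so it is not a total of inhibitory receptors. The log2 ratio to Pdcd1 was -3.78 ± 0.12 for Lag3 and -5.73 ± 0.25 for Tigit, negative in 4 of 4 libraries. Of 12 such genes outside the 10, 8 were detected, beside 47.0% of all protein-coding genes. These were Ctla4, Cd5 (1614 ± 4.88 TPM), Cd6 (697 ± 15.3), Pdcd1, Btla, Vsir (40.7 ± 1.46), Cd101 (16.5 ± 1.47) and Entpd1 (1.27 ± 0.229), the gene of the ectoenzyme CD39. Klrg1 and Cd300a had 0 counts in all libraries, and Cd244a and Lilrb4a were at 0.107 ± 0.0373 and 0.182 ± 0.0590 TPM.

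The signalling genes that such receptors recruit were all detected, 12 of 12, beside 47.0% of all protein-coding genes. Lck (844 ± 26.5 TPM), Csk (310 ± 5.60), which binds LAIR1, and Ptpn6 (286 ± 11.6), which encodes the phosphatase SHP-1, were the highest. Bag6, a partner of TIM-3, was at 141 ± 2.91 TPM, Grb2 at 135 ± 4.03, Fyn at 128 ± 2.71 and Ptpn11 (SHP-2) between 96.7 and 103. Inpp5d (SHIP-1) was at 57.1 ± 2.93 TPM. The CD200R1 adaptors Dok2 and Dok1 were at 45.8 ± 2.24 and 43.7 ± 2.16 TPM and their partner Rasa1 at 43.4 ± 1.44.

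Of 17 regulators of coinhibitory receptors known in mouse T cells, 15 were detected, beside 47.0% of all protein-coding genes. Maf, which with Prdm1 drives a shared program of these receptors, was at 139 ± 7.47 TPM, while Prdm1 was at 0.588, 0.825, 0.533 and 0.499 TPM. Both Eomes (0.0651 ± 0.0487 TPM) and Prdm1 were under the threshold. Irf4 (813 ± 20.2 TPM), Batf (440 ± 22.7), Tcf7 (317 ± 3.53), Nr4a1 (176 ± 13.5), Maf and Egr2 (94.0 ± 2.46) were the 6 highest. Il6st (81.4 ± 2.91 TPM) and Il27ra (77.4 ± 1.36), the chains of the IL-27 receptor, were detected as well. Nfil3, a driver of Havcr2 in T cells, was at 20.5 ± 1.46 TPM and Tbx21, which also acts on Havcr2, at 10.9 ± 1.36. Over all 6 pathway lists, 47 of 70 genes were detected, beside 47.0% of all protein-coding genes.

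The differences between libraries stayed under a ratio of 2 for all of the detected genes. The spread of Cd200, Cd96, Lag3, Cd200r1, Tigit and Cd226 lay above the median of genes near their level. Havcr1 was near that median and Lair1 below it. A median does not show how many of those genes spread more. A gene was called variable where the Poisson deviance of its counts, with edgeR scaling and Benjamini-Hochberg adjustment, passed 0.05 with a ratio of 2 or more between the highest and lowest CPM, which held for 1.74% of 12434 genes. Of the 10 genes, 8 passed the filter on low counts and 0 were called, nor were any called by the negative binomial deviance at edgeR's trended dispersion (0.145% of genes). A count of 0 of 8 lies near both of these shares over all genes. Unadjusted p was under 0.05 for 4 of the 8 genes by the Poisson deviance and for 0 by the negative binomial deviance, beside 46.5% and 4.48% of all genes tested. The highest-to-lowest CPM ratio ran from 1.19 for Lag3 to 1.48 for Cd200r1, with a median of 1.25 over the 8 genes beside 1.11 over all genes tested. These medians were not matched for level, so they do not compare the 8 with genes counted as deeply. Havcr2 and Cd160 were left out by the filter.

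With no ratio asked, the Poisson deviance passed Cd200 (adjusted p = 1.2e-35), Cd96 (1.29e-08), Lag3 (0.000441) and Cd200r1 (0.0295), 4 of 8, and 36.6% of all genes tested. That test allows for counting noise alone, so deeply counted genes such as Cd200, with 33843 counts in all, pass at small ratios. At the trended dispersion the adjusted p of each of the 8 was 1.00. The SD of log2 CPM was 0.11 for Cd200, 0.14 for Cd96 and 0.11 for Lag3, beside medians of 0.04, 0.06 and 0.07 over the 200 tested genes nearest in level to each. It was 0.26 beside 0.18 for Cd200r1, 0.20 beside 0.16 for Tigit, 0.16 beside 0.12 for Cd226, 0.13 beside 0.13 for Havcr1 and 0.17 beside 0.22 for Lair1. Relative to their own mean log2 CPM, Cd200 lay 0.14 and Lag3 0.15 above in replicate 4, and at -0.12 and -0.11 in replicate 3, while Cd96 lay 0.11 above in replicate 1 and at -0.19 in replicate 2.

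**Figure D4:**
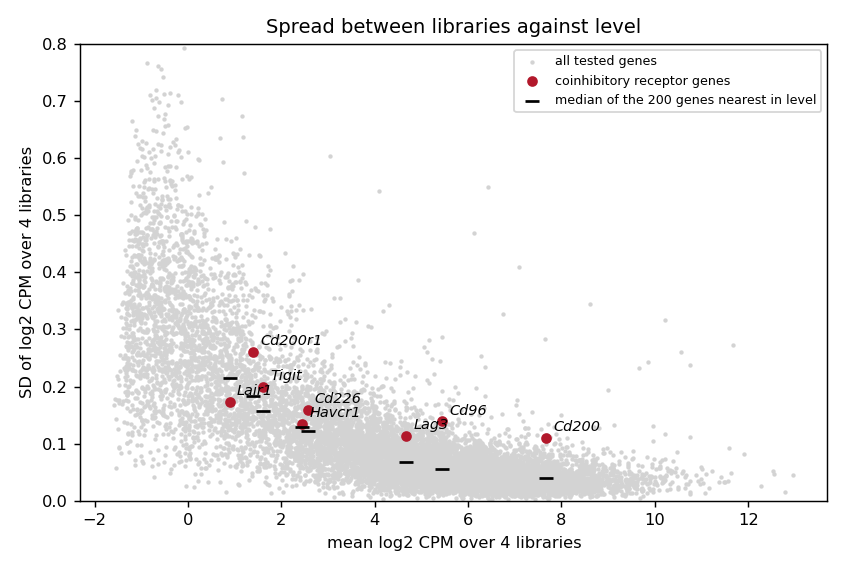
SD of log2 CPM over the 4 Th17 libraries against mean log2 CPM for 12434 tested genes (grey; 10 genes above 0.8 are not drawn), with the 8 of the 10 described genes that were tested in red and, as a black dash, the median of the 200 genes nearest in level to each. Cd200, Cd96 and Lag3 lie above their dash, at 0.11, 0.14 and 0.11 against 0.04, 0.06 and 0.07. Cd200r1, Tigit and Cd226 lie above theirs too, Havcr1 is near its dash and Lair1 lies below.

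Of the 70 genes in the pathway lists, 51 were tested and 0 were called variable, beside 1.74% of all genes tested. By the Poisson deviance 31 were at an unadjusted p under 0.05, beside 46.5% of all genes tested. By the negative binomial deviance 0 were called and 2, Nr4a1 and Nr4a3, were at an unadjusted p under 0.05, near the share of 4.48% over all genes tested.

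Several of the genes lie close together, in coordinates of build mm10. On chromosome 16, Tigit (ENSMUSG00000071552.4, 43648861 to 43664184), Cd200r1 (ENSMUSG00000022667.17, 44765736 to 44794978), Cd200 (ENSMUSG00000022661.14, 45382135 to 45409053), Cd96 (ENSMUSG00000022657.9, 46035657 to 46120251) and the ligand gene Nectin3 (46387706 to 46498525) fall within 2850 kb. Of the 36 protein-coding genes in that stretch, 21 were detected, beside 47.0% of all protein-coding genes. Btla lies 129 kb from Cd200, and Gm609, the gene on the other side of Cd200 at a gap of 2.71 kb, was at 0.0133 ± 0.0266 TPM. The nearest coding neighbours of Tigit were Zbtb20 (0.337 ± 0.0540 TPM) and Drd3 (0 counts), and those of Cd96 were Plcxd2 (16.4 ± 0.969) and Gm4737 (2.31 ± 0.493). Cd200r1 stands between Gtpbp8 (7.38 ± 0.701 TPM) and Cd200r4.

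On chromosome 11, Havcr2 (ENSMUSG00000020399.14, 46454935 to 46481255) and Havcr1 (ENSMUSG00000040405.13, 46735080 to 46779578) lie in a stretch of 407 kb from Med7 to Timd4. Of its 8 coding genes 3 were detected, beside 47.0% of all protein-coding genes. Med7 (31.8 ± 2.07 TPM) ends 12.2 kb before Havcr2, while Gm12169 on its far side was at 0.0212 ± 0.0424. Lag3 (ENSMUSG00000030124.2, chromosome 6, 124904361 to 124911705) lies 16.1 kb from Cd4 and 1.98 kb from Ptms (74.6 ± 3.79 TPM). Cd226 (ENSMUSG00000034028.15, chromosome 18, 89197431 to 89270201) stands between Rttn (16.6 ± 0.577 TPM) and Dok6 (0 counts). Cd160 (ENSMUSG00000038304.14, chromosome 3, 96798763 to 96829351) stands between Rnf115 (87.6 ± 1.09 TPM) and Gpr89 (38.8 ± 1.56), and Lair1 (ENSMUSG00000055541.17, chromosome 7, 4003402 to 4063204) between Lilra6 (0 counts) and Ttyh1 (0.00975 ± 0.0128). None of the 10 genes shares exon bases with a gene on its own strand in the deposited gene models, and Cd160 shares 68 bases with Pdzk1 on the opposite strand, which strand-specific counting keeps apart.

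**Figure D5:**
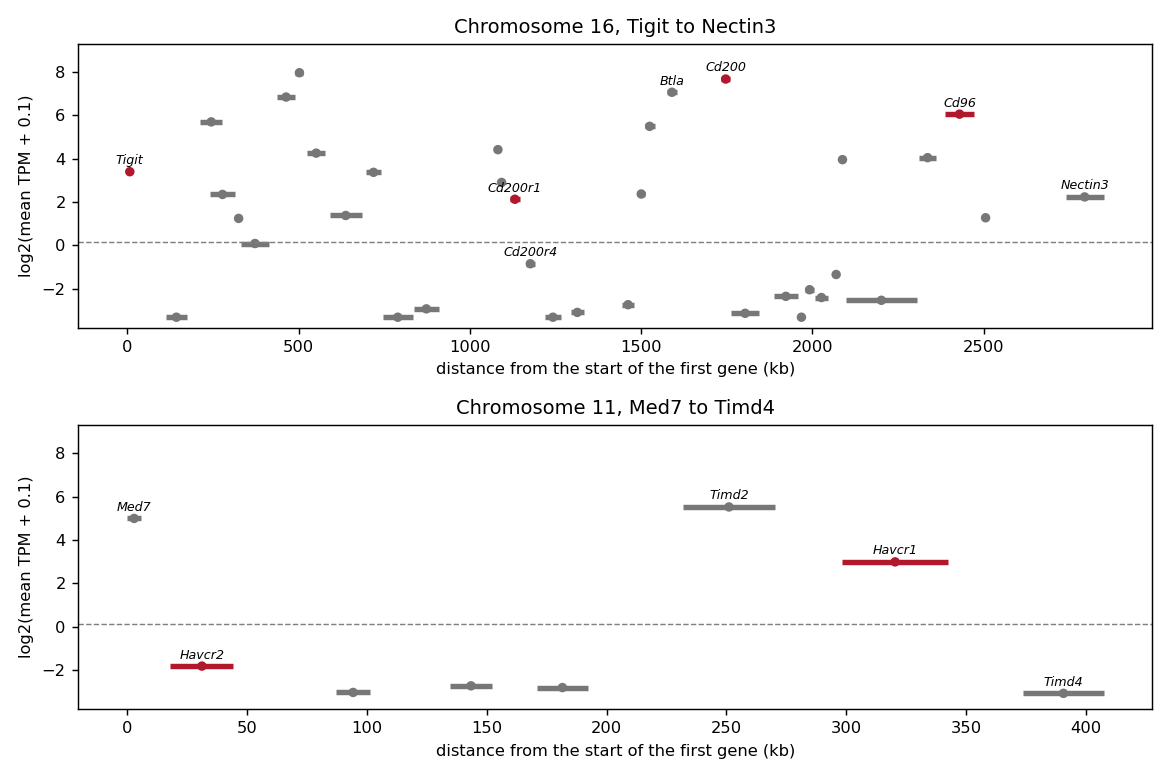
Mean level as log2(mean TPM + 0.1) of each protein-coding gene along 2 stretches of the genome, against distance from the start of the first gene in kb; a line spans each gene, red marks Tigit, Cd200r1, Cd200, Cd96, Havcr2 and Havcr1, and the dashed line is 1 TPM. Genes at 0 or near it stand directly beside high ones, such as Havcr2 at 0.182 TPM beside Med7 at 31.8 TPM.

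By Euclidean distance of log2(TPM + 1) over the 4 libraries, the protein-coding genes most like Lag3 were Rhot2 (distance 0.0813) and Prr14 (0.0855), and those most like Tigit were Ddit3 (0.135) and Pafah1b3 (0.166). For Cd200 they were Tmem109 (0.120) and Hdac7 (0.136), for Cd96 Btbd19 (0.116) and Ano6 (0.121), and for Cd226 Mettl8 (0.0749) and Ston1 (0.102). For Havcr1 they were D3Ertd254e (0.0856) and Zfp607a (0.0873), and for Cd200r1 2900011O08Rik (0.149) and Kantr (0.191). The search covered 21763 genes, and over 4 libraries of 1 group this measure mainly reads a like mean level.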

How the data were processed

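RNA of 4 Th17 libraries was sequenced in pairs; the assay label says total RNA, while the name of the linked library protocol says poly(A). The authors deposited raw fragment counts per gene with exon lengths, made with featureCounts 1.4.6-p4, per the file headers: both ends mapped, strand option 2 (reverse), exons of GENCODE M13, and the labels name build mm10. Fragments that map to several places or overlap several genes were not counted, as the command held neither option; no source used here gives the aligner. Symbols and biotypes came from GENCODE M21 by ID stem (50376 of 50600 genes, 10 of 10 members, 7 of them with the same version).

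TPM was computed from counts and deposited exon lengths. Pair ratios are log2((TPM + 0.1)/(TPM + 0.1)) within a library, tested by an exact sign-flip permutation over the libraries (two-sided), with Benjamini-Hochberg adjustment over 18 pairs. Variation used edgeR 4.0.16 (TMM, default filter, intercept only; deviance with 3 degrees of freedom) in R 4.3.3 over 12434 genes, with a prior count of 0.5 for CPM ratios and 2 for SDs, and was tested on simulated data, in which the Poisson rule also called genes left unchanged. No contrast exists, so no quasi-likelihood test between groups was run. Alternatives were DESeq2 1.42.0 size factors, other thresholds, pseudocounts and lengths, no filter, and each replicate left out. The transcript lengths of GENCODE M21 were an alternative added after the data were seen. The 10 members and all lists were chosen with earlier results of these data known. All members are named, every ligand, the list genes at 1 TPM or more (for the regulators, with 15 such genes, the 6 highest), the 2 most similar genes of each detected member and its coding neighbours on the genome. Other genes were named after their values were seen, and 1 gene that the rule would name is not reported here. Intervals and floors of 3 counts cover counting error only.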

Additional observations from a re-analysis of the deposited data

Results flagged for a closer look

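Of 81 sets of 4 libraries, 4 held a library whose gap to the nearest other exceeded Dixon's critical share of the range, and chance flags about 1 set in 20. None of the 10 members was among them. Inpp5d was low in replicate 4 at 52.8 TPM, against 57.9 in the nearest library, and Csk was low in replicate 1 at 302 TPM, against 312 in the nearest. Col1a1 was low in replicate 2 at 0.0688 TPM, and Timd4 was above 0 in replicate 4 alone at 0.0711 TPM, on 2 counts.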

How the results depend on the processing

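The number of the 10 genes detected was 7, and 8 with a threshold of 0.5 TPM or with 1 CPM (Lair1 joined), 6 with 5 TPM, and 7 with the transcript lengths of GENCODE M21 and without each replicate. Of 162 alternative values of 18 pair ratios, 160 kept their direction; the log2 ratio of Tigit to Cd226 turned to -0.94 in CPM without length scaling, and that of Cd226 to Havcr1 to -1.01 with the longest coding transcript. Across all alternatives, 19 values of 14 pairs moved by over 1.5 times, 0 of them by leaving out a replicate: 10 in CPM, 4 with the longest coding transcript and 5 with a pseudocount of 1 TPM, among them Havcr2 to Havcr1 (-2.90), Cd160 to Btla (-6.76), Pvr to Nectin2 (3.60) and Lair1 to Cd160 (0.54). In both reversals, the change is the length itself; the counts were not remade on the longer gene model. Of 50 alternative mean levels, 3 moved by more than 1 SD, all with that length: Cd200 to 290 TPM, Havcr1 to 8.91 and Cd226 to 4.37. Without each replicate in turn, 0 of 40 mean levels moved by more than 1 SD. The number of the 10 genes called variable was 0 under the other alternatives and 4 with no ratio asked. For the pathway lists it was 0, 1 without the filter on low counts (H2-Eb1) and 28 with no ratio asked. Of all genes tested, 4.91% were called without the filter and 36.6% with no ratio asked. No paired analysis was possible because the libraries form a single group. Depth limits Havcr2 and Cd160, with 24 and 36 counts in all, whose order cannot be read from these libraries.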
